A study of Mus musculus with 9 samples.

Results

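The 10 genes that coat, grow or empty lipid droplets were followed through liver cancer and its treatment with miR-22. The genes were taken by symbol from the table of counts per gene: the perilipins Plin2, Plin3, Plin4 and Plin5, the CIDE family members Cidea, Cideb and Cidec, the lipase gene Pnpla2, its inhibitor G0s2, and Fitm2. These are 10 of 55401 genes in the table, and all 10 were among the 15717 genes with enough counts to be tested. RNA from whole liver was sequenced for 9 female mice, 3 in each of 3 groups, with 1 library per liver.

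The mice were obtained at 6 weeks of age and are named as FVB/N in the growth protocol and the methods, although the strain field of the labels reads C57BL/6. The labelled genotype is WT in the healthy mice and WT with HCC in the others. In the HCC livers, hydrodynamic tail vein injection delivered transposon plasmids for activated AKT (pT3-EF1α-HA-myr-AKT) and mutant Nras (pT/Caggs-Nras-v12) together with the sleeping beauty transposase, so tumors arise from liver cells that took up plasmid. The protocol also lists a β-catenin plasmid, and the methods name RAS/AKT for the sequenced tumors. At 1 week after the oncogenes, the untreated HCC mice received AAV8 blank control and the miR-22-treated HCC mice received AAV8 carrying miR-22 under the CMV promoter, and livers were taken at week 5, which is 4 weeks after AAV. Healthy livers had neither plasmids nor AAV, so effects of the oncogenes, of the injection and of the AAV cannot be told apart in comparisons with them. The AAV dose in the labels differs from that in the methods.

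A lipid droplet is a core of triglyceride and sterol ester under a single layer of phospholipid, and the proteins on that layer decide how fast the core is used. Perilipins cover the surface and hold lipases off it, CIDE proteins sit where droplets touch and pass lipid from the smaller to the larger one, and FIT proteins act in the endoplasmic reticulum where droplets bud. Lipolysis starts with adipose triglyceride lipase, the product of Pnpla2, which needs the co-activator CGI-58 (Abhd5) and is blocked by G0S2. In hepatocytes, Plin2 is the classic coat protein and a common marker of steatosis, Cideb serves in loading lipid onto VLDL, and Cidea and Cidec are best known from brown and white fat and from fatty liver.

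The sequence of the treating miRNA is shown because only 1 of the 10 genes held a match to its seed. The mature mouse miRNA from RefSeq (GRCm38.p6, chr11:75463772-75463793, plus strand) is given with its seed, bases 2 to 8, in capitals, and the window of Plin2 with the matching GGCAGCT in capitals.
mmu-miR-22-3p: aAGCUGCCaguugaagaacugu
Plin2, 3′ UTR (GRCm39, chr4:86574864-86574892, minus strand): gcgtgtgcttgGGCAGCTtgaggtgaggt
The match began at base 389 of the 468 bases of the Plin2 3′ UTR in its canonical transcript. The 3′ UTRs of the other 9 genes, from 359 bases in Cidea to 3124 bases in Fitm2, did not hold these letters, and 14.1% of 20774 protein-coding genes with a 3′ UTR did. A match of letters is a description and not a shown target site.

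Motifs known for lipid and oxygen sensing were also searched on both strands in the 300 bases around each start, in RefSeq promoters of GRCm38.p6. The searched letters were CACGTG (E-box), ACGTG (the core of the hypoxia response element, which lies within the E-box), and a DR1, which is AGGTCA repeated with 1 base between and is bound by PPAR with RXR, with at most 2 mismatches. Of the 9 genes with a promoter entry, Plin2 was the one with any of them, and both stretches are shown with the motif in capitals.
Plin2, DR1 on the opposite strand, starting 225 bases before the gene start (GRCm38.p6, chr4:86670264-86670292, minus strand): agctttcaGGACCCCTGACCTaagtcaga
Plin2, E-box, starting 4 bases before the gene start (GRCm38.p6, chr4:86670046-86670074, minus strand): agctgggctatCACGTGgctcggaggctt
Among 32851 promoters of that length, 3.86% held such a DR1, 7.15% the E-box and 19.6% the hypoxia core.

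Total counts per library were 18258660 to 20964551 in healthy, 18293676 to 23908392 with untreated HCC, and 16664659 to 20459853 after miR-22 treatment. Against healthy, untreated HCC livers had 3.82 more Akt1 and 1.29 more Nras on the log2 scale, and 1.77 less of the miR-22 host transcript Mir22hg (edgeR's quasi-likelihood test, adjusted p = 2.90e-08, 2.46e-07 and 1.32e-06). In treated against untreated HCC, Akt1 differed by -0.79 and was called lower, Nras by -0.36, under the fold threshold, and Mir22hg by 0.76 and was called higher (edgeR's quasi-likelihood test, adjusted p = 0.0079, 0.013 and 0.0045). The part of the lower Akt1 and Nras in the results for treated livers was not tested. Mir22hg is the host gene and not the vector, so it does not measure the delivered miRNA. The summed level of 7 hepatocyte markers was 2333600 to 2434300 normalized counts in healthy, 954810 to 1186700 with untreated HCC, and 1423800 to 1728800 after miR-22 treatment, and all 7 were lower in untreated HCC. The 5 ductal markers summed to 570 to 812, 64481 to 120550 and 30304 to 52390 in the same order, most of it from Spp1 (means of 520, 89639 and 39135), and 4 of the 5 were called higher in untreated HCC, and the 8 macrophage markers to 5328 to 6441, 4822 to 5583 and 6062 to 6520. More than any other marker, Clec4f carried the macrophage sum (means of 3253, 2446 and 3260), whereas 3 of the 8 were called higher in untreated HCC against healthy, with Trem2 at 7.58 and 66.5 and Gpnmb at 3.56 and 36.5. Stellate cell markers summed to 3276 to 4223, 6928 to 8831 and 4930 to 6352. Of these 7 markers, 3 were called higher and 2 lower in untreated HCC against healthy. Col1a1 went from a mean of 112 to 3734, and Lrat from 817 to 291. Endothelial markers summed to 6285 to 7936, 3927 to 5022 and 5188 to 6744. Of these 5, 3 were called lower and 0 higher in untreated HCC, with Pecam1 at means of 590 and 647. Lymphocyte markers summed to 104 to 154, 131 to 187 and 137 to 195, and neutrophil markers to 6.11 to 32.9, 137 to 194 and 127 to 225. In bulk liver, fewer cells of a type and less RNA per cell cannot be told apart, and the part of cell composition in the results that follow was not tested.

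Untreated HCC livers had more transcript of 5 of the 10 genes than healthy livers. Plin2, Plin3, Plin4, Cidea and Cidec were higher, Cideb was lower, and Plin5, G0s2, Pnpla2 and Fitm2 were not called. A gene was called at a Benjamini-Hochberg adjusted p under 0.05 over all 15717 genes and a fold change over 1.5, and by this rule 22.7% of all tested genes were higher and 18.1% lower in this comparison. Cidea, with 0 counts in the healthy livers, passed the filter on low counts only through the HCC livers, so its call in either comparison with healthy is no support. Values of 6 of the 10 genes did not overlap between the groups, against 65.3% of all tested genes, so the count without overlap is near the background.

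Between miR-22-treated and untreated HCC, edgeR's quasi-likelihood test called 0 of the 10 genes, and the Wald test of DESeq2 also called 0. By the same rule 8.32% of all tested genes were higher and 5.47% lower. At an unadjusted p under 0.05 there were 3 (Plin3, Cideb and Pnpla2), of which Plin3 and Cideb also had an adjusted p under 0.05 with a fold change below 1.5. Only the values of Plin3 and Cideb did not overlap between the groups, 2 of 10 against 39.3% of all tested genes.

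Compared with healthy livers, miR-22-treated HCC livers also had 5 genes called higher, namely Plin2, Plin3, Plin4, Cidea and Cidec, and no gene called lower. The Wald test of DESeq2 called 4 of these and not Plin3, which was under the fold threshold there. The background was 16.9% of all tested genes called higher and 7.05% called lower. Values of 6 of 10 did not overlap, Pnpla2 being the sixth, against 48.8% of all tested genes. Both comparisons with healthy share the same 3 healthy livers, and both comparisons with untreated HCC share the same 3 untreated livers.

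**Figure D1:**
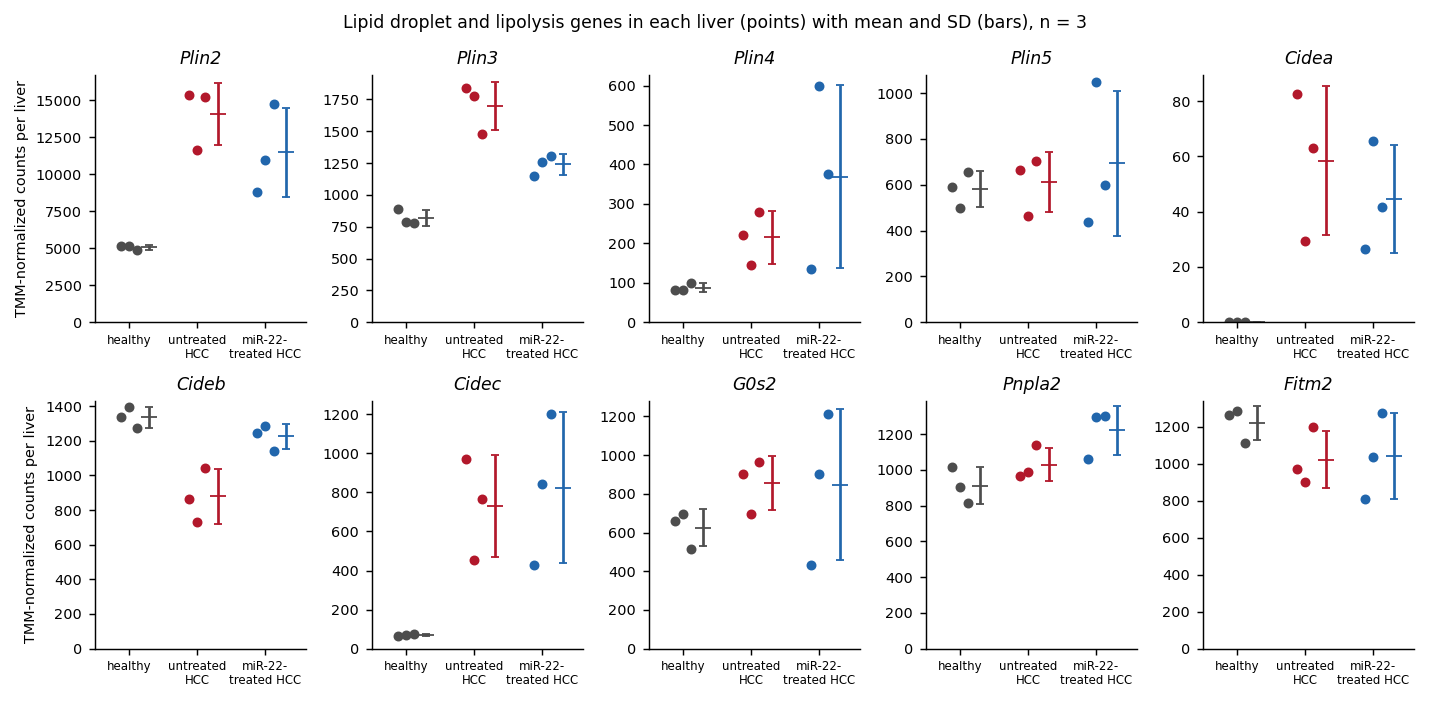
Normalized counts (TMM, vertical axes from 0, a scale for each gene) of the 10 genes in each of the 9 livers, as points by group, with the mean and SD of 3 livers as bars. Plin2 sits at 4852 to 5176 in healthy livers and at 8790 or above in every HCC liver, and Cidea is at 0 in all healthy livers.

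The scaling matters for directions near 0. TMM scaling was used, with factors of 0.865 to 0.872 in healthy, 1.12 to 1.22 with untreated HCC, and 0.942 to 1.03 after miR-22 treatment. Scaling by total counts alone moved the median log2 fold change of all genes to 0.43 for untreated HCC against healthy, to -0.23 for miR-22-treated against untreated HCC and to 0.21 for miR-22-treated HCC against healthy. It changed the split of all calls from 3575 higher and 2842 lower to 5986 and 1492, from 1308 and 859 to 835 and 2164, and from 2664 and 1108 to 3408 and 593, in the same order. Among the 10 genes it gave 7 higher and 0 lower, then 0 higher and 1 lower, then 6 higher and 0 lower. Calls of listed genes with total counts alone, given below, are to be read against the total-count splits of all 15717 genes. The percentages of all tested genes called hold for TMM scaling.

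Plin2 encodes perilipin 2, the main droplet coat of hepatocytes (GRCm39, chr4:86565912-86588459). It had 5176, 5176 and 4852 normalized counts in the 3 healthy livers, 15379, 11674 and 15218 in untreated HCC, and 8790, 10977 and 14739 in miR-22-treated HCC. Every HCC liver was above every healthy liver, and the treated livers spread over a 1.68-fold range that reached into the untreated one. The increase in untreated HCC was 2.78-fold (log2 1.48 ± 0.17 SE, adjusted p = 1.33e-05 by edgeR's quasi-likelihood test), and in miR-22-treated HCC it was 2.27-fold (log2 1.18 ± 0.17, adjusted p = 2.25e-04). Treated against untreated livers gave a log2 difference of -0.29 ± 0.17 with a 95% interval from -0.66 to 0.08, which was not called (adjusted p = 0.24).

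Plin3 encodes perilipin 3, a coat protein that moves from the cytosol onto new droplets (chr17:56584218-56599873). Its values were 893, 788 and 782 in healthy livers, 1838, 1776 and 1481 in untreated HCC, and 1149, 1262 and 1306 in miR-22-treated HCC. The groups did not overlap in any of the comparisons, and the treated livers lay between the other two groups. Untreated HCC was 2.07-fold above healthy (log2 1.05 ± 0.10, adjusted p = 2.79e-06 by edgeR's quasi-likelihood test). Treated livers were 1.37-fold below untreated ones (log2 -0.45 ± 0.10, adjusted p = 0.0068), less than the fold threshold. They were 1.51-fold above healthy (log2 0.59 ± 0.10, adjusted p = 7.42e-04), barely past it. That last call was lost, with the log2 value between 0.55 and 0.58, when healthy replicate 2 or 3 or miR-22-treated replicate 3 or 4 was left out, and with DESeq2 size factors or the Wald test of DESeq2 (0.57 each). It was also lost with edgeR's glmTreat, which tests against a fold of 1.5 (adjusted p = 0.78).

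Plin4 encodes perilipin 4, a long amphipathic coat protein found mostly in fat and muscle (chr17:56406617-56416931). Healthy livers had 82.9, 80.7 and 100.2 normalized counts, untreated HCC 222, 145 and 278, and miR-22-treated HCC 134, 599 and 376. All HCC livers exceeded all healthy ones, and the treated livers spanned a 4.46-fold range. The gene was 2.44-fold higher in untreated HCC (log2 1.29 ± 0.42, adjusted p = 0.02 by edgeR's quasi-likelihood test) and 4.18-fold higher in miR-22-treated HCC (log2 2.06 ± 0.42, adjusted p = 0.0023). The first of these calls was lost without healthy replicate 1, healthy replicate 2 or untreated replicate 4, with adjusted p of 0.0608, 0.0667 and 0.0712. It was also lost with glmTreat against a fold of 1.5 (adjusted p = 0.081). Treated against untreated HCC gave 0.77 ± 0.39 on the log2 scale (adjusted p = 0.17). Without miR-22-treated replicate 2 that value was 1.17 and was called (adjusted p = 0.0091). Plin4 shares 3124 exonic bases with Hdgfl2 on the opposite strand, and the library does not keep strand. Hdgfl2 itself had a mean of 753 normalized counts in healthy and 696 in untreated HCC livers (log2 -0.11, adjusted p = 0.34 by edgeR's quasi-likelihood test).

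Plin5 encodes perilipin 5, the coat of cells that burn fat, which ties droplets to mitochondria (chr17:56418446-56424610). Its values were 590, 498 and 654 in healthy livers, 665, 463 and 706 in untreated HCC, and 438, 1048 and 598 in miR-22-treated HCC. All 3 groups overlapped, and miR-22-treated replicate 3 was the highest of the 9. Untreated HCC differed from healthy by 0.07 on the log2 scale, with a 95% interval from -0.48 to 0.63 (adjusted p = 0.83 by edgeR's quasi-likelihood test). The values for treated livers were 0.18 against untreated HCC (adjusted p = 0.66) and 0.25 against healthy (adjusted p = 0.48). Plin5 lies between Plin4 and Plin3 on chromosome 17, on the same strand as both.

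Cidea was the only gene of the 10 without counts in healthy livers. CIDEA promotes lipid transfer between droplets and is abundant in brown fat. Raw counts were 0 in all 3 healthy livers, 91, 34 and 87 in untreated HCC and 24, 53 and 45 in miR-22-treated HCC, which correspond to 82.7, 29.5 and 63.1 and to 26.6, 65.6 and 41.5 normalized counts. Every HCC liver had the transcript, and the HCC groups overlapped each other. Against a floor of 3 counts per healthy library, the transcript was at least 16.7-fold higher in untreated HCC and at least 12.7-fold higher in miR-22-treated HCC. These are descriptions, since the gene passed the filter only through the groups where it is high, and it was not tested with at least 10 counts in every library. Between treated and untreated HCC the log2 difference was -0.40 ± 0.43, with a 95% interval from -1.33 to 0.53 (adjusted p = 0.55 by edgeR's quasi-likelihood test).

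Fat tissue markers were counted for the same livers, because Cidea, Cidec and Plin4 are abundant in fat. The brown fat marker Ucp1 had 0 counts in all 9 livers, and so did Zic1, and the 5 brown markers summed to 64.0 to 70.7 normalized counts in healthy livers, 10.4 to 31.2 with untreated HCC and 15.7 to 59.4 after miR-22 treatment, nearly all of it from Elovl3 (means of 66.5, 20.5 and 33.6). Of 7 white adipocyte markers, 1 (Nnat) had more than 3 counts in every library and the other 6 had 0 to 8 raw counts in any library, and the 7 summed to 57.3 to 70.4 normalized counts in healthy, 48.6 to 81.2 with untreated HCC, and 53.5 to 62.1 after miR-22 treatment. Plin1, the perilipin of white adipocytes, had 0 to 4 raw counts per healthy library, 0 to 1 with untreated HCC, and 2 to 7 after miR-22 treatment, too few to be tested.

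Cidec, also called FSP27 in mice, encodes the CIDE protein that enlarges droplets in white fat and steatotic liver (chr6:113400691-113412721). Healthy livers had 65.9, 69.7 and 73.5 normalized counts, untreated HCC 971, 454 and 769, and miR-22-treated HCC 426, 845 and 1202. The lowest HCC liver was far above the highest healthy liver, and the HCC groups covered much the same range. Cidec was 10.5-fold higher in untreated HCC (log2 3.39 ± 0.38, adjusted p = 8.32e-06 by edgeR's quasi-likelihood test) and 11.8-fold higher in miR-22-treated HCC (log2 3.56 ± 0.38, adjusted p = 1.77e-05). Treated and untreated HCC differed by 0.18 ± 0.31 on the log2 scale, with a 95% interval from -0.49 to 0.85 (adjusted p = 0.72).

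Cideb, the CIDE gene of normal hepatocytes with a role in VLDL lipidation and droplet fusion, moved the opposite way (chr14:55991507-55996099). Its values were 1337, 1397 and 1274 in healthy livers, 862, 731 and 1044 in untreated HCC, and 1246, 1287 and 1143 in miR-22-treated HCC. Untreated livers were all below healthy and treated ones, whereas healthy and treated livers overlapped. The decrease in untreated HCC was 1.52-fold (log2 -0.60 ± 0.12, adjusted p = 7.11e-04 by edgeR's quasi-likelihood test), close to the fold threshold. It fell short of the fold without healthy replicate 2 (-0.58) or untreated replicate 3 (-0.48), with upper-quartile scaling (-0.56), and with at least 10 counts in every library (-0.56). The call was also lost with glmTreat (adjusted p = 0.48). With total counts alone it was -0.19 (adjusted p = 0.12), where the median gene was at 0.43. Treated livers were 1.39-fold above untreated ones (log2 0.48 ± 0.12, adjusted p = 0.011), under the fold threshold, and were called higher when untreated replicate 4 was left out (0.62, adjusted p = 0.0017). Treated and healthy livers differed by -0.12, with a 95% interval from -0.38 to 0.13 (adjusted p = 0.43 by edgeR's quasi-likelihood test). Cideb shares 1136 exonic bases with Nop9 on the opposite strand. Nop9 had means of 461, 462 and 381 normalized counts in healthy, untreated and treated livers and was not called in any comparison.

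**Figure D2:**
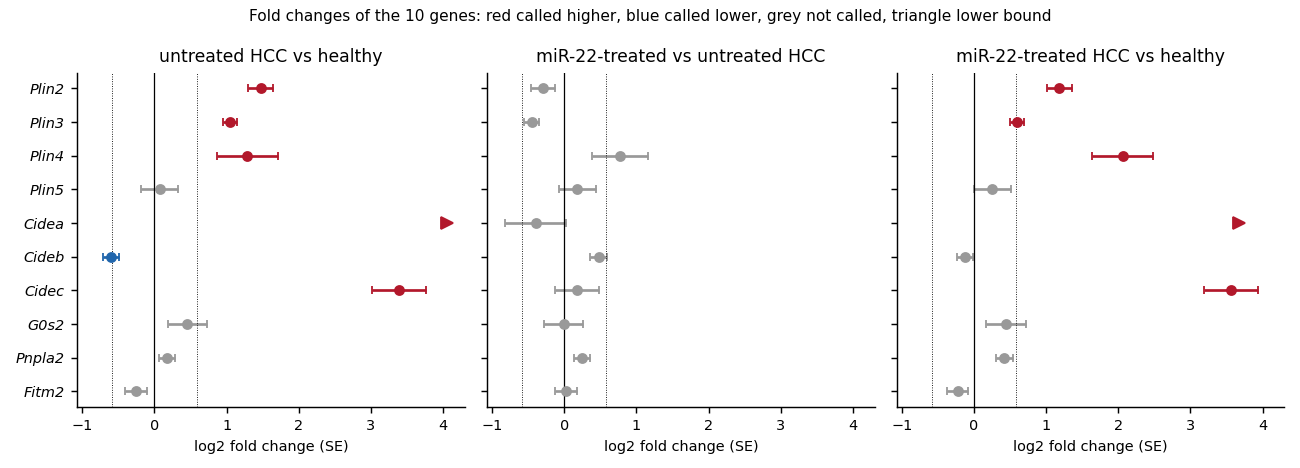
Log2 fold change with its SE (horizontal axis) of each of the 10 genes in the 3 comparisons, from edgeR, with dotted lines at a fold of 1.5. Red points were called higher, the blue point lower, and grey points were not called, and the triangle for Cidea is the lower bound against the floor. In the middle panel every point is grey.

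Pnpla2 encodes adipose triglyceride lipase, which takes the first fatty acid off a stored triglyceride (chr7:141034404-141040656). It had 1018, 906 and 814 normalized counts in healthy livers, 966, 987 and 1137 in untreated HCC, and 1062, 1299 and 1303 in miR-22-treated HCC. Untreated livers overlapped both other groups, and treated livers were above all healthy ones. Untreated HCC differed from healthy by 0.18 ± 0.11 on the log2 scale (adjusted p = 0.20 by edgeR's quasi-likelihood test). Treated livers were 1.34-fold above healthy (log2 0.42 ± 0.11, adjusted p = 0.011), under the fold threshold, and 0.25 ± 0.11 above untreated HCC (adjusted p = 0.13). With total counts alone Pnpla2 was called higher than in healthy livers in untreated HCC (0.60) and in miR-22-treated HCC (0.61).

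G0s2 encodes the small protein that binds and inhibits adipose triglyceride lipase (chr1:192949563-192956177). Healthy livers had 657, 698 and 517 normalized counts, untreated HCC 905, 696 and 965, and miR-22-treated HCC 432, 902 and 1211. Treated livers held both the lowest and the highest value of the 9, a 2.81-fold range. No comparison passed the test, with log2 differences of 0.46 ± 0.27 for untreated HCC against healthy (adjusted p = 0.18 by edgeR's quasi-likelihood test), -0.01 ± 0.27 for treated against untreated HCC (adjusted p = 0.98) and 0.45 ± 0.28 for treated HCC against healthy (adjusted p = 0.23). Without miR-22-treated replicate 2, the last value was 0.75 and was called (adjusted p = 0.00614). With total counts alone, untreated HCC was called higher than healthy at 0.87.

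Fitm2 encodes the widely expressed FIT protein of the endoplasmic reticulum, needed for orderly droplet budding (chr2:163308228-163314576). Its values were 1262, 1286 and 1114 in healthy livers, 970, 899 and 1195 in untreated HCC, and 810, 1037 and 1273 in miR-22-treated HCC. The groups overlapped in all comparisons. The log2 differences were -0.26 ± 0.15 for untreated HCC against healthy (adjusted p = 0.17 by edgeR's quasi-likelihood test), 0.03 ± 0.15 for treated against untreated HCC (adjusted p = 0.92) and -0.23 ± 0.15 for treated HCC against healthy (adjusted p = 0.26). The sign of the first changed with total counts alone, to 0.16. Beside those of Plin4 and Cideb, exonic overlaps with genes on the opposite strand were 379 bases for Fitm2 (2310001K24Rik), 119 for G0s2 (Lamb3), 867 for Pnpla2 (Gm72429), 379 for Cidea (B430212C06Rik), 282 for Cidec (Gm52871) and 141 for Plin3 (Gm64477). Cideb also shares 258 exonic bases with Gm56758. B430212C06Rik had 0 to 5 raw counts in any library. The transcripts Gm72429, Gm52871, Gm64477 and Gm56758 were not analysed here. 2310001K24Rik, with means of 4.22, 5.35 and 12.8, and Lamb3, with means of 84.1, 128 and 127 normalized counts in healthy, untreated and treated livers, were not called in any comparison.

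Levels of different genes were compared per kilobase of the canonical transcript, since longer transcripts collect more counts. Plin2 was the highest of the 10 in each group, at 2472 ± 91.2 normalized counts per kb in healthy, 6873 ± 1022 in untreated HCC and 5611 ± 1468 in miR-22-treated HCC (SD, n = 3). Cideb came second in each group, at 957 ± 44.2, 629 ± 113 and 878 ± 52.9 per kb, and in untreated HCC its range overlapped that of G0s2, the next in order. In healthy livers the order went on with Pnpla2 (443 per kb), G0s2 (368), Fitm2 (308), Plin5 (258) and Plin3 (208), where each of these overlapped the next. Cidec (24.4), Plin4 (11.8) and Cidea (0) followed without overlap. In untreated HCC, Cidec stood at 256 ± 91.0 per kb, and its range overlapped that of Fitm2 at 257 ± 38.9. The order depends on the length used: over the union of all annotated exons, Cideb was first in healthy livers at 799 per kb and Plin2 second at 660.

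Ratios within a liver do not depend on the scaling between libraries. The ratio of Cidec to Cideb counts was 0.0497, 0.0503 and 0.0581 in healthy livers, 1.13, 0.622 and 0.737 in untreated HCC, and 0.342, 0.657 and 1.05 in miR-22-treated HCC. All HCC livers were above all healthy livers, by 3.93 on the log2 scale for untreated and 3.56 for treated HCC (two-sided exact permutation test, p = 0.1 each, the smallest that 3 against 3 livers allow, and 0.225 after adjustment over 9 ratio tests). The ratio of Plin2 to Plin5 was 8.76, 10.4 and 7.41 in healthy livers, 23.1, 25.2 and 21.5 in untreated HCC, and 20.03, 10.5 and 24.6 in treated HCC. Compared with healthy livers it was 1.41 higher on the log2 scale in untreated HCC and 0.98 higher in treated HCC (exact permutation p = 0.1 each, adjusted 0.225), and treated replicate 3 lay just above the highest healthy liver.

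The inhibitor and its lipase were compared in the same way. G0s2 to Pnpla2 was 0.646, 0.771 and 0.635 in healthy livers, 0.937, 0.705 and 0.849 in untreated HCC, and 0.407, 0.694 and 0.929 in miR-22-treated HCC. The groups overlapped, with log2 differences of 0.28 for untreated HCC against healthy (exact permutation p = 0.2), -0.37 for treated against untreated HCC (p = 0.4) and -0.09 for treated HCC against healthy (p = 0.9). Treated against untreated HCC gave -0.38 for Cidec to Cideb (exact permutation p = 0.5) and -0.43 for Plin2 to Plin5 (p = 0.3).

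**Figure D3:**
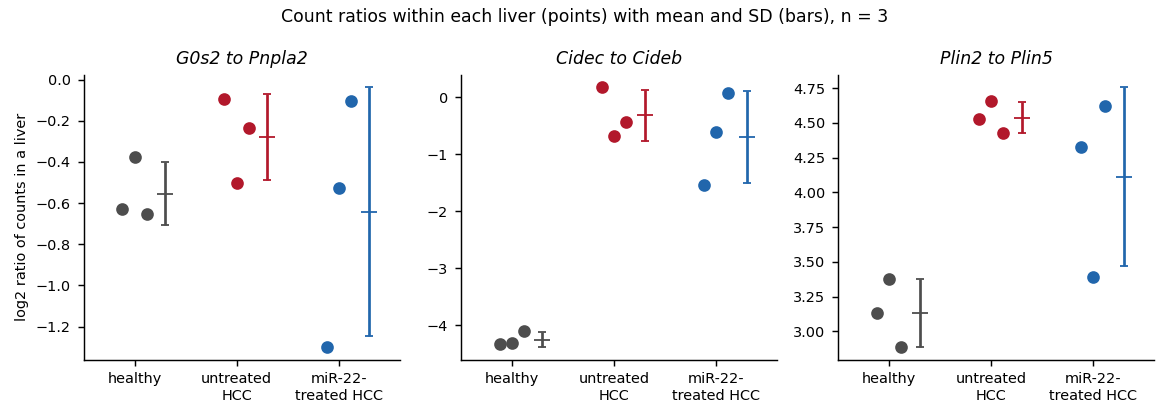
Log2 ratio of counts (vertical axis, different ranges) of G0s2 to Pnpla2, Cidec to Cideb and Plin2 to Plin5 in each liver as points, with mean and SD of 3 livers as bars. Cidec to Cideb lies near -4.25 in healthy livers and between -1.55 and 0.17 in HCC livers.

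The other genes of lipolysis moved in both directions in untreated HCC. Of 11 tested, 4 were higher and 5 lower, against 22.7% and 18.1% of all tested genes, with a median log2 fold change of -0.52 against 0.01 over all genes tested (-0.099 against 0.43 with total counts alone). Hilpda, another inhibitor of adipose triglyceride lipase, rose from a mean of 24.8 to 177 normalized counts (log2 2.82 ± 0.32, adjusted p = 9.71e-06 by edgeR's quasi-likelihood test). Its co-activator gene Abhd5 rose by 0.68 on the log2 scale, and the related Pnpla3 and Pnpla5 by 1.14 and 2.00, the latter from 7 to 9 raw counts in healthy livers. Lipe (hormone-sensitive lipase) fell by 1.54, Mgll (monoacylglycerol lipase) by 1.01, Abhd6 by 1.09, Aadac by 0.72 and the carboxylesterase Ces1d, which belongs to a cluster of near-identical genes, by 2.35.

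In miR-22-treated against untreated HCC, 3 of these 11 genes were higher and 1 lower, against the 8.32% and 5.47% given above for all tested genes, with a median of 0.49 against 0.00 over all genes (0.26 against -0.23 with total counts alone, which gave 1 higher and 1 lower). Ces1d (1.28), Abhd6 (0.62) and Mgll (0.59) were higher on the log2 scale, Aadac (0.49) passed the adjusted p but not the fold, and Hilpda fell by 1.11 to a mean of 81.1 normalized counts (adjusted p = 0.013 by edgeR's quasi-likelihood test). The folds of Abhd6 and Mgll were 1.53 and 1.5001, close to the threshold. The count of 4 depended on single livers: it was 1 without untreated replicate 3 or treated replicate 3, 2 without treated replicate 4, and 7 without untreated replicate 4. Against healthy livers, treated HCC had 3 higher (Pnpla3, Pnpla5 and Hilpda, at 1.61, 2.15 and 1.72) and 2 lower (Lipe and Ces1d, at -1.03 and -1.07). The shares of all tested genes in that comparison were 16.9% higher and 7.05% lower.

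Of 14 other droplet proteins tested, 3 were higher and 4 lower in untreated HCC, compared with healthy livers. These counts are near the 22.7% and 18.1% of all tested genes. The list had a median of -0.33 that turned to 0.091 with total counts alone, where the median gene was at 0.43 and the counts were 3 higher and 2 lower. Fitm1, the FIT protein of muscle, rose by 1.51 on the log2 scale, Tmem159 (promethin or LDAF1, the seipin partner) by 1.05 and the interferon-induced Rsad2 by 0.85. The droplet-bound Mettl7b, Hsd17b11, Vps13c and Aup1 fell by 1.13, 1.06, 0.68 and 0.60. Seipin itself (Bscl2) differed by -0.39, under the fold threshold. With miR-22, Hsd17b11 (0.69) and Mettl7b (0.68) were higher than in untreated HCC, 2 of 14 against 8.32% of all tested genes. That count was 0 without untreated replicate 3 or with total counts alone, and Aup1 (0.37) passed the adjusted p but not the fold. Treated HCC had 3 of the 14 higher than healthy, Fitm1 (1.84), Tmem159 (0.79) and Rsad2 (0.78), which is near the 16.9% of all tested genes. Lower calls were 0, against 7.05%, and Pcyt1a (-0.41) was among those that passed the adjusted p but not the fold.

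In triglyceride synthesis, 5 of 15 genes were higher and 5 lower in untreated HCC, against 22.7% and 18.1% of all tested genes. The list median was -0.21 and turned to 0.21 with total counts alone, where the median gene was at 0.43. That scaling gave 7 higher and 3 lower, against 5986 and 1492 of all 15717 genes. Mogat1, a monoacylglycerol acyltransferase, went from a mean of 12.2 to 193 normalized counts (log2 3.99) and Mogat2, with 2 to 4 raw counts in healthy livers, rose by 1.93, whereas Dgat2, the diacylglycerol acyltransferase that is prominent in liver, fell by 1.44. Among the lipins, which make diacylglycerol, Lpin1 and Lpin2 fell by 1.28 and 1.58 and Lpin3 rose by 0.79. Gpam and Agpat4 rose by 0.75 and 1.02, and Gpat3 and Gpat4 fell by 0.82 and 0.71.

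In miR-22-treated against untreated HCC, 4 of the 15 were higher and 1 lower, against 8.32% and 5.47% of all tested genes. With total counts alone 2 were higher and 3 lower, against 835 and 2164 of all 15717 genes. Lpin1 was 2.78 and Lpin2 2.14 higher on the log2 scale (adjusted p = 6.03e-04 and 7.82e-05 by edgeR's quasi-likelihood test), Dgat2 0.67 and Gpat3 0.61 higher, and Lpin3 fell by 0.64. Lpin1 spread from 3318 to 14097 normalized counts over the 3 treated livers, against 1057 to 1136 in untreated HCC. Mogat1 differed by -0.12 (adjusted p = 0.79). Against healthy, treated HCC had Mogat1 (3.87), Mogat2 (2.05), Lpin1 (1.51) and Gpam (0.70) higher and Dgat2 lower (-0.77), against 16.9% and 7.05% of all tested genes. With total counts alone 5 were higher and 0 lower, against 3408 and 593 of all 15717 genes.

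VLDL assembly carries triglyceride out of the hepatocyte. Of 7 genes, Sar1b, Tm6sf2 and Mia2 were called lower in untreated HCC, at -0.82, -0.75 and -0.64, against 18.1% of all tested genes. In either direction 0 of 7 were called with total counts alone, and the list median was -0.075 where the median gene was at 0.43. The structural protein gene Apob and the transfer protein gene Mttp were at -0.49 and -0.48, below the fold threshold. In treated against untreated HCC, edgeR and DESeq2 each called 0 of 7, with 5 higher at an unadjusted p under 0.05, and Sar1b (0.56), Mia2 (0.49) and Tm6sf2 (0.44) passed the adjusted p but not the fold. With all livers, 8.32% of all tested genes were higher and 5.47% lower in that comparison. The VLDL count was 1 without untreated replicate 2 or treated replicate 2. In treated HCC against healthy both tools also called 0 of 7, where edgeR called 16.9% of all tested genes higher and 7.05% lower. At an unadjusted p under 0.05 there were 2 lower, and the smallest p were those of Sar1b (-0.26), Tm6sf2 (-0.32) and Mttp (-0.17).

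**Figure D4:**
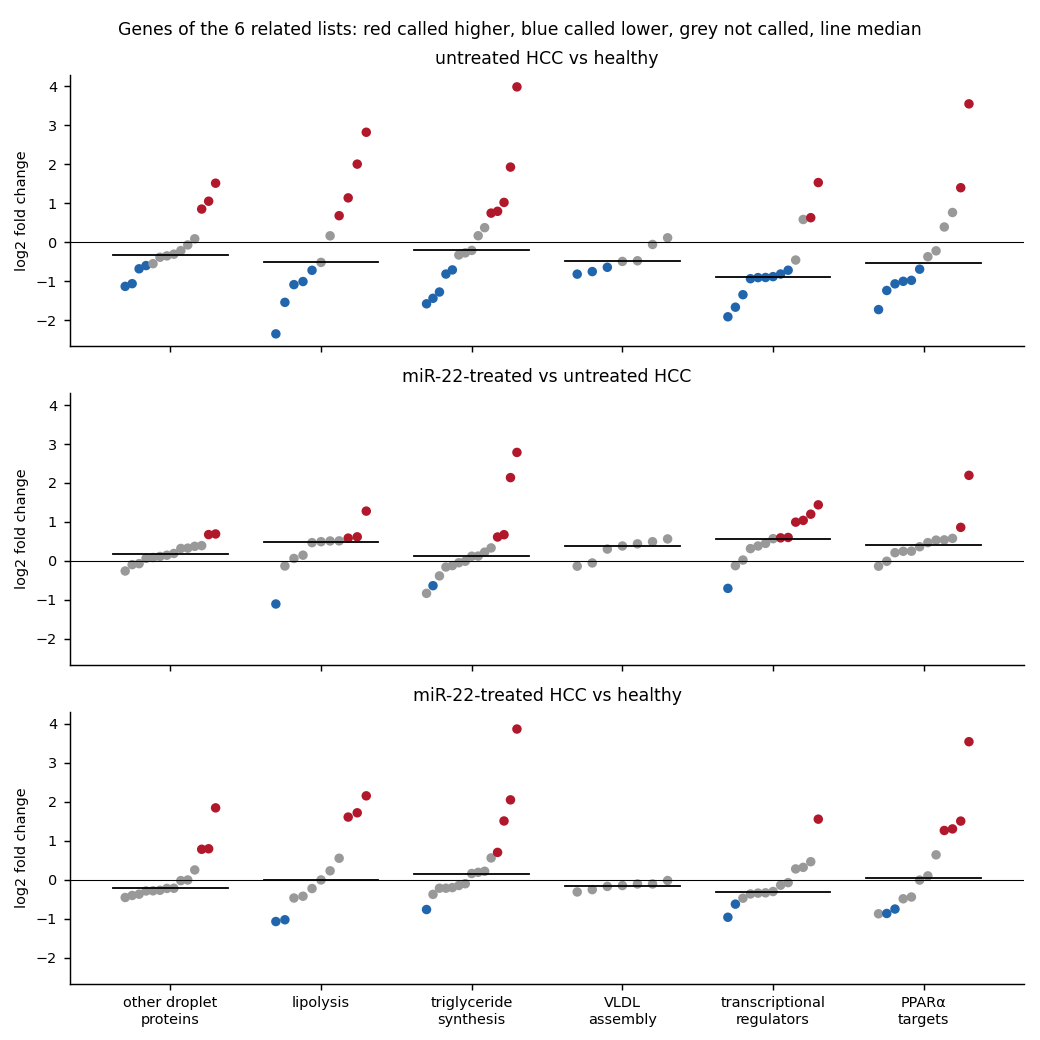
Log2 fold changes (vertical axis) of the tested genes in 6 related lists, 1 panel per comparison, ordered by value within each list. Points are red where called higher, blue where called lower and grey otherwise, and the line is the list's median, which with TMM scaling is, for transcriptional regulators, -0.88 in untreated HCC against healthy and 0.57 in miR-22-treated against untreated HCC.

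Of 13 transcriptional regulators known to act on droplet genes, namely 12 transcription factors and the co-activator gene Ppargc1a, 2 were higher and 9 lower in untreated HCC, against 22.7% and 18.1% of all tested genes, with a median of -0.88. The split was 3 higher and 3 lower with total counts alone, with a median of -0.46 where the median gene was at 0.43. Pparg, a receptor that drives Cidec in fat and in fatty liver, rose from a mean of 103 to 297 normalized counts (log2 1.53, adjusted p = 1.23e-06 by edgeR's quasi-likelihood test), and Ppard rose by 0.63. Ppara, the fasting receptor of liver, fell from 3868 to 1025 (log2 -1.92, adjusted p = 8.29e-07), Mlxipl (ChREBP) by 1.67, Srebf1 by 1.35, Rxra by 0.91 and Nr1h3 by 0.82. With miR-22, 6 were higher and 1 lower than in untreated HCC (8.32% and 5.47% of all tested genes), among them Ppara (1.44), Ppargc1a (1.20), Mlxipl (1.04), Foxo1 (0.99), Nr1h4 (0.60) and Creb3l3 (0.59), and Ppard fell by 0.70. Nr1h4 and Creb3l3, at folds of 1.52 and 1.51, were barely past the threshold. Pparg had a mean of 301 in treated livers and differed from untreated HCC by 0.02 (adjusted p = 0.92 by edgeR's quasi-likelihood test). The count of 7 was 4 without untreated replicate 2 (3 higher and 1 lower). Against healthy, treated HCC had Pparg higher (1.55) and Srebf1 (-0.97) and Mlxipl (-0.63) lower, and Hif1a (0.46) was among those that passed the adjusted p but not the fold. That split of 1 higher and 2 lower stood against 16.9% and 7.05% of all tested genes. With total counts alone it was 2 higher and 1 lower, against 3408 and 593 of all 15717 genes.

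Of 12 liver target genes of PPARα, 2 were higher and 6 lower in untreated HCC, against 22.7% and 18.1% of all tested genes, with a median of -0.53. With total counts alone 3 were higher and 3 lower, with a median of -0.11 where the median gene was at 0.43. The hormone gene Fgf21 rose by 3.55 on the log2 scale and Vnn1 by 1.40, while the oxidation genes Ehhadh and Acadm fell by 1.00 and 0.98, Cyp4a10 by 1.24 and Angptl4 by 0.69. With miR-22, 2 were higher than in untreated HCC (8.32% of all tested genes), among them Angptl4 (2.20), and Acadm (0.53) passed the adjusted p but not the fold. Without untreated replicate 4 the counts were 4 higher and 0 lower, and without treated replicate 4 they were 3 higher and 1 lower, with a list median of -0.091 there against 0.42 with all livers. In treated HCC 4 were higher than in healthy livers, Fgf21 (3.54), Angptl4 (1.503), Pdk4 (1.30) and Vnn1 (1.26), and 2 were lower, among them Ehhadh (-0.75). The shares of all tested genes were 16.9% higher and 7.05% lower. With total counts alone the PPARα targets had 4 higher and 1 lower, against 3408 and 593 of all 15717 genes.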

How the data were processed

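Per the methods, libraries from whole liver were non-directional and sequenced from both ends. The authors checked quality with FastQC 0.11.7, ran Salmon against GRCm39 and summed its estimates to genes with tximport. The deposited counts are whole numbers per gene and liver, not normalized and not filtered. A second deposited table, the same counts after DESeq2 1.18 scaling by the authors, was not used.

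The quasi-likelihood F test of edgeR 4.0.16 in R 4.3.3 was two-sided and fitted all 3 groups at once, after filterByExpr and TMM scaling, with Benjamini-Hochberg adjustment over 15717 genes. A gene was called at an adjusted p under 0.05 and a fold over 1.5. Normalized counts are TMM-scaled, errors are SD of values and SE of log2 fold changes. A group with 3 counts or fewer in every library is at the floor. Ratios are of raw counts with 0.5 added, on the log2 scale, tested by exact permutation. The test was checked on simulated counts. Gene spans, lengths and 3′ UTRs come from GENCODE vM39 on GRCm39, which held 51731 of the 55401 gene IDs and all 10 genes; the authors' release may differ. Figures were made in Python 3.11.15 with matplotlib 3.10.9.

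The 10 genes, the 6 related lists and the marker lists were chosen with earlier results of these data known. Named in the text are the 10 genes, members of the lists that were called or had the smallest p (not every called member), genes that overlap a member, defining markers, Akt1, Nras and Mir22hg. Bscl2, Apob and Mttp were named after their values were seen. Some genes of the list of PPARα targets are counted but not reported here by name. Alternatives were DESeq2 size factors, upper-quartile scaling, total counts alone, no filter, at least 10 counts in every library, only the 2 groups compared, the DESeq2 1.42.0 Wald test, glmTreat, no fold threshold, the replicate number as a block, and each liver left out in turn. Where a group is left with 2 livers, the spread is pooled over all groups.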

Additional observations from a re-analysis of the deposited data

How the results depend on the processing

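Of 11 calls among the 10 genes over the 3 comparisons, 8 were kept in every alternative that tested them, and of 207 alternative values of these calls 189 kept the call, 18 lost it and 0 changed sign. The calls that were lost were those of Plin4 and Cideb in untreated HCC against healthy and of Plin3 in miR-22-treated HCC against healthy. Of these calls 2 are those of Cidea, which passed the filter only through the HCC livers and was not tested with at least 10 counts in every library. For miR-22-treated against untreated HCC, the count of called genes was 1 with total counts alone (Plin3 lower), 1 with no filter (Plin4, adjusted p = 3.3e-05 by edgeR's quasi-likelihood test), 2 with no fold threshold and 0 to 1 with a liver left out. Over all genes, total counts alone called 835 higher and 2164 lower of 15717, and no filter 1431 and 1017 of 29621. No fold threshold gave 2140 and 1637 of 15717. A liver left out gave 1015 to 1511 higher and 415 to 1149 lower. The count without overlap was 2 to 4 with a liver left out, and the share over all genes, 39.3%, is known here only with all livers. The cause of these shifts was not tested.

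Signs changed for values near 0. With total counts alone, Cideb in miR-22-treated HCC against healthy was 0.060, and for miR-22-treated against untreated HCC Cidec was -0.044, Fitm2 -0.20 (-0.012 with upper-quartile factors) and Plin5 -0.062; Fitm2 in untreated HCC against healthy was 0.16. With a liver left out, the ranges for treated against untreated HCC were -0.21 to 0.48 for Cidec, -0.15 to 0.17 for Fitm2, -0.36 to 0.30 for G0s2, -0.24 to 0.42 for Plin5 and -0.76 to 0.050 for the ratio of Cidec to Cideb. For treated HCC against healthy they were -0.16 to 0.48 for Plin5 and -0.36 to 0.24 for the ratio of G0s2 to Pnpla2, and Plin5 in untreated HCC against healthy ranged from -0.045 to 0.24.

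Among the lists, total counts alone gave 2 called lipolysis genes, 0 other droplet proteins in treated against untreated HCC, 6 transcriptional regulators (3 higher and 3 lower) and 0 VLDL genes in untreated HCC against healthy, and upper-quartile factors gave 2 lipolysis genes. With a liver left out, counts for treated against untreated HCC were 1 to 7 for lipolysis, 0 to 2 for droplet proteins, 2 to 4 for PPARα targets, 4 to 8 for transcriptional regulators and 0 to 1 for VLDL. Calls over all genes also moved with a liver left out, from 1015 to 1511 higher and from 415 to 1149 lower.

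The livers were not paired by replicate number in the main fit. Deviations of untreated and treated livers with the same number correlated at -0.12, -0.13 and -0.24. With 3 livers per group, these values cannot decide whether the numbers mark pairs. With the number as a block, 4 of the 10 genes were called higher and 1 lower in untreated HCC against healthy. For treated against untreated HCC 0 were called, and for treated HCC against healthy 5 were higher and 0 lower. Over all 15717 genes, the block fit called 3268 higher and 2595 lower, 1127 and 618, and 2171 and 873, in the same order. Both counts against healthy include Cidea, whose call is no support. Plin4 in untreated HCC against healthy was at 1.17 and was not called (adjusted p = 0.10 by edgeR's quasi-likelihood test). With 3 livers per group the common dispersion was 0.0206, and fold changes under 1.5 can pass the test but were not called.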

Other observations

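In each HCC group 1 liver was the lowest for most of the 10 genes. Among the miR-22-treated livers, replicate 2 had the lowest normalized count for 9 of the 10 genes (all but Cideb) and the highest for 0, and replicate 4 had the highest for 6. Among the untreated HCC livers, replicate 3 was the lowest for 8 of the 10 genes (all but Plin3 and Pnpla2) and replicate 4 the highest for 6. Among the healthy livers, each was the highest for 3 of the 9 genes detected there, and replicate 3 was the lowest for 6. The range over the livers was wider than in healthy livers for 8 of these 9 genes in untreated HCC (all but Pnpla2, 1.18-fold against 1.25-fold) and for 7 in treated HCC (all but Pnpla2, 1.23-fold, and Plin3, 1.14-fold in both groups). Over the untreated HCC livers Cidec ranged 2.14-fold, G0s2 1.39-fold and Plin5 1.52-fold. Cidec ranged 2.82-fold over the treated livers, G0s2 2.81-fold and Plin5 2.39-fold, against 1.12-fold, 1.35-fold and 1.32-fold over the healthy livers. All 10 values of a liver share its library and its scaling, so these counts describe single livers and are not independent of each other.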
